A study of Mus musculus with 23 samples.

Results

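The MAP kinase phosphatases are dual-specificity phosphatases, enzymes that switch off a MAP kinase by taking phosphate from both the threonine and the tyrosine of its activation loop. The 10 genes described here, Dusp1, Dusp2, Dusp4, Dusp5, Dusp6, Dusp7, Dusp9, Dusp10, Dusp14 and Dusp16, were taken by name from 53607 gene rows. All 10 were among the 20372 genes with enough counts to be tested. They were followed in 23 RNA-seq libraries of mouse embryonic stem cells that crossed 3 factors, RAS, ERF and the culture medium, into 8 groups. RAS proteins relay growth factor signals down to ERK, a MAP kinase. ERF is an ETS-type repressor of transcription that active ERK sends out of the nucleus.

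Every line carried the Raslox/lox background, that is, it lacked both copies of H-Ras and N-Ras, had a further RAS gene flanked by loxP sites, and held Ubiq-CreERT2, a Cre recombinase under a ubiquitin promoter that 4-hydroxytamoxifen activates. Groups named RAS deleted had received this drug for 6 days. No group had the drug without the deletion, so their effects cannot be told apart. ERF was labelled wild type or knockout (ERFKO), and the labels do not say how the knockout was made or whether it is 1 clone. Naive culture was 2iL, which is the MEK inhibitor PD0325901, the GSK3 inhibitor CHIR99021 and the cytokine LIF. The other medium, FA, held FGF2 and Activin A and was applied for 48 hours on fibronectin to obtain epiblast-like stem cells. Each group had 3 libraries, except for 2 in the FA group with RAS and ERF wild type. Nothing in the labels says that libraries of a group were separate cultures, so p-values measure only the spread between these libraries, which may be technical.

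MAP kinase phosphatases work as feedback brakes: ERK signalling raises the mRNA of several of them, and the enzymes then remove the activating phosphates from ERK. They differ in place and preference. Dusp6, Dusp7 and Dusp9 sit mainly in the cytoplasm and prefer ERK. Dusp1, Dusp2, Dusp4 and Dusp5 are nuclear enzymes of inducible genes. Dusp10 and Dusp16 prefer the stress kinases JNK and p38, and Dusp14 is a small atypical phosphatase. In embryonic stem cells ERK signalling drives exit from the naive state, and 2iL blocks it at MEK.

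The libraries held 16221640 to 29874207 counts. A single row, Gm26917, took 24.2% to 27.9% of the counts in 2iL, 21.7% to 25.1% in FA with RAS and 17.6% to 22.5% in FA without RAS, so its share moved with medium and RAS; its part in the results was not tested. General pluripotency markers summed to between 1026 and 1506 CPM (counts scaled to library size) in all groups. The naive marker list summed to between 3045 and 3725 CPM in 2iL, and to between 258 and 359 CPM in 3 of the FA groups. In the fourth FA group, ERF wild type with RAS deleted, it stood at 1284 to 2061 CPM. Markers of the formative or primed state, taken as 1 list, summed to between 123 and 181 CPM in 2iL and between 422 and 1090 CPM in FA. The fibroblast list summed to between 1906 and 2437 CPM in 2iL and between 567 and 1499.6 CPM in FA, with its members Postn or Col3a1 at 0 in every group. Erf mRNA was not lost under the knockout label. Its group means were 116 CPM against 77.6 CPM with ERF wild type in 2iL with RAS and 152 CPM against 87.8 CPM in 2iL without, but 57.5 CPM against 63.1 CPM in FA with RAS and 60.6 CPM against 69.7 CPM in FA without. The H-Ras and N-Ras rows kept 188 to 743 and 95 to 1121 counts, so RNA of these genes does not check the labels. Replicate 1 of the 4 ERF wild-type groups stood apart on chromosome 8, where its genes were 0.22 to 0.34 log2 units above their mean over all libraries, relative to the whole library. The other 19 libraries lay between -0.09 and -0.02. Dusp4 lies on chromosome 8 and is therefore also given without those 4 libraries. Replicate 1 of both 2iL groups labelled ERF knockout was raised by 0.10 and 0.14 on chromosome 11, which carries Dusp14.

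The stretches just upstream of Dusp6, Dusp5 and Dusp1 are shown because these genes differed in pattern: Dusp6 was called for medium and for RAS in FA, Dusp5 for medium and once for the ERF label, and Dusp1 in none of the 12 comparisons, with its widest difference, under 2-fold, between the ERF labels. They come from RefSeq (GRCm38.p6), run 5′ to 3′ on the strand of the gene and leave out bases that fall in an annotated exon. Capitals mark matches, on either strand, to a CArG box, the site of serum response factor, or to the cyclic AMP response element TGACGTCA and its core TGACG.
Dusp6: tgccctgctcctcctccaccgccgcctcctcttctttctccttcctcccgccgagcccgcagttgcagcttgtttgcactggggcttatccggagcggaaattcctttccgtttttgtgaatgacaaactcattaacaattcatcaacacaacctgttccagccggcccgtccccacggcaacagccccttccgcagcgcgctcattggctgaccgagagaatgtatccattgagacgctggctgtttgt
Dusp5: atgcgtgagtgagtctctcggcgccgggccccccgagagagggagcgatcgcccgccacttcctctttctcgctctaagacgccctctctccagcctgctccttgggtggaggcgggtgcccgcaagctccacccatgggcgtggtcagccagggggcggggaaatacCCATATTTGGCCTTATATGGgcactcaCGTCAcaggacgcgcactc
Dusp1: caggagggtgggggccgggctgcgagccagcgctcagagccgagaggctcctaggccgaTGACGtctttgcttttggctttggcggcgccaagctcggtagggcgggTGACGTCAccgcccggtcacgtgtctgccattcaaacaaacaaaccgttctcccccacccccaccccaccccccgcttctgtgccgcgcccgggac
The stretches lie at chr10:99262981-99263230 (plus strand), chr19:53528895-53529108 (plus strand) and chr17:26508520-26508722 (minus strand). The annotated span of Dusp1 extends further upstream and takes in its stretch. The 250 bases before the RefSeq start were searched for 8 of the 10 genes. Dusp4 and Dusp9 had no entry. CArG boxes were found in 1.47% of 32851 promoters and, among the 8, in Dusp5, which held 2 side by side at 82 and 72 bases before the start. TGACGTCA was found in 1.55% of promoters and in Dusp1, 143 bases before the start. The core TGACG, which overlaps the full element, was found in 17.8% of promoters and in Dusp1, Dusp5 and Dusp16. The ETS-type site CCGGAAG (6.91% of promoters) and the AP-1 site TGANTCA (6.75%) were found in 0 of the 8. A match describes the letters and not a bound site. Only these patterns were searched, so a site with other letters, such as a looser ETS-type site, was not counted.

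On the scale of the deposited TPM values, which are scaled to gene length and library, the 10 genes together made up 86.7 ± 2.9 TPM (SD, n = 3) in ERF wild-type cells with RAS in 2iL and 214.3 ± 5.6 TPM (SD, n = 2) in FA. With RAS deleted the FA sum was 98.6 ± 7.6 TPM (SD, n = 3). Under the ERF knockout label the corresponding sums were 61.0 ± 2.9 TPM, 142.2 ± 14.1 TPM and 78.0 ± 2.3 TPM (SD, n = 3 each). Dusp9 supplied the largest mean share in all 8 groups, from 30.1% to 49.1%. The make-up of the rest differed between groups. In ERF wild-type cells with RAS, Dusp6 supplied 4.04% ± 1.11 of the sum in 2iL (SD, n = 3) and 28.0% ± 0.08 in FA (SD, n = 2). Dusp16 supplied 4.44% ± 0.25 of the sum in that FA group (SD, n = 2) and 23.6% ± 1.99 after RAS deletion (SD, n = 3). Dusp4 supplied 14.99% and 14.05% of the sum on average in the FA groups with RAS, and under 6% in the other 6 groups.

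**Figure D1:**
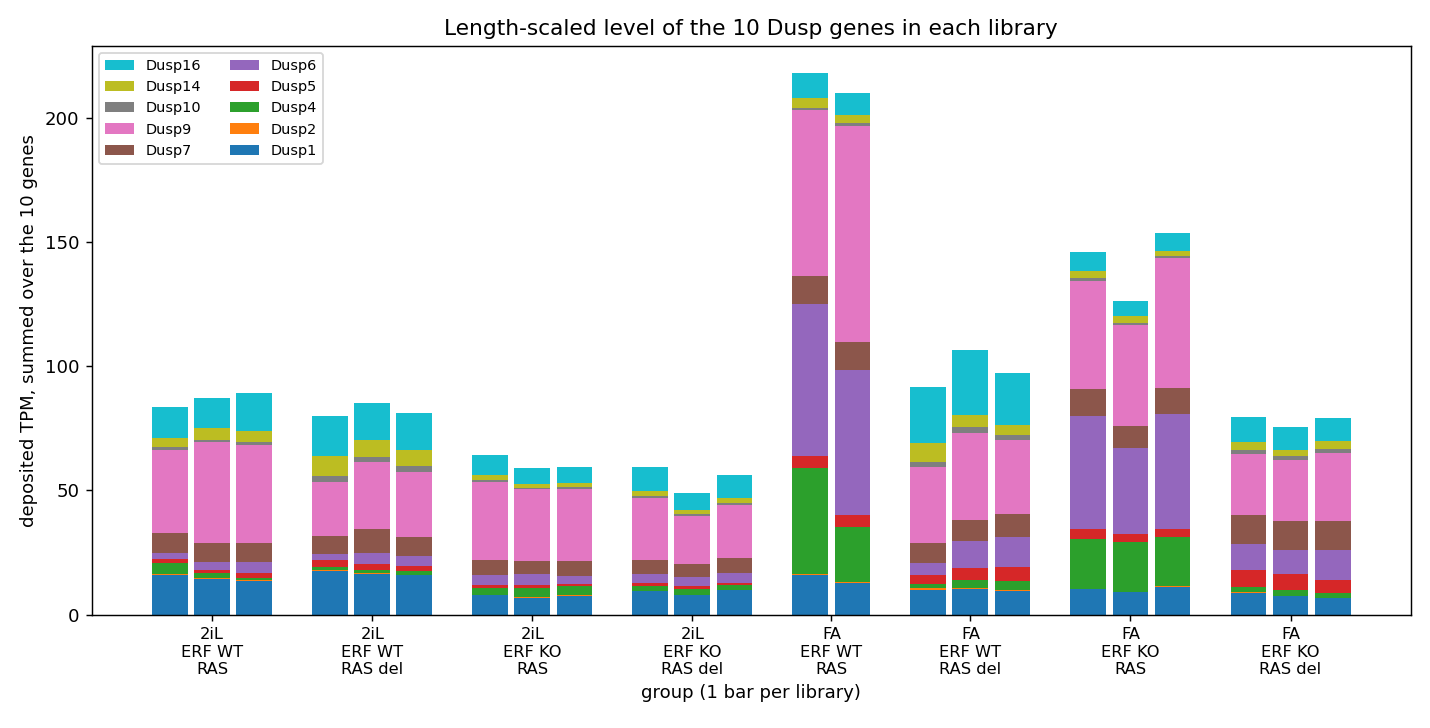
Deposited TPM of the 10 genes, stacked, in each of the 23 libraries (1 bar per library; x axis, group; y axis, summed TPM). The 2 libraries of ERF wild type with RAS in FA are the tallest, and the Dusp6 and Dusp4 blocks are wide only in the 5 FA libraries with RAS.

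Ranked by mean CPM over the 8 groups, Dusp4 spanned 25.4-fold from its highest to its lowest group and Dusp6 18.9-fold. Dusp5 spanned 5.71-fold, Dusp10 4.04-fold, Dusp14 4.02-fold and Dusp9 3.23-fold. Dusp16 (2.66-fold), Dusp1 (2.27-fold) and Dusp7 (1.78-fold) spanned least. No fold is given for Dusp2, whose lowest group held 3, 3 and 0 counts. Of the 7 pairs of neighbouring groups in each gene's order, 4 had separate ranges for Dusp6 and for Dusp9, 3 for Dusp4, Dusp5, Dusp14 and Dusp16, 2 for Dusp7 and Dusp10, and 1 for Dusp1 and Dusp2. The other neighbours overlapped. The top group was FA with RAS and ERF wild type for Dusp4, Dusp6 and Dusp9, and a RAS-deleted group for Dusp1, Dusp2, Dusp5, Dusp10, Dusp14 and Dusp16.

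With RAS present, FA went with more Dusp6, Dusp4 and Dusp5 mRNA than 2iL in both ERF states, from 19-fold for Dusp6 to 3.0-fold for Dusp5 with ERF wild type, and with ERF wild type also 2.00-fold more Dusp9. Deleting RAS in FA took Dusp4, Dusp6 and Dusp9 down, by 12.3-fold, 7.4-fold and 2.7-fold with ERF wild type, while Dusp5 was not called. In 2iL RAS deletion raised Dusp10 in ERF wild-type cells and called no other member. The ERF knockout label went with less Dusp14 in 2iL in both RAS states and, where RAS was deleted, with less Dusp5, Dusp10 and Dusp2 in 2iL and less Dusp16 in FA. Each gene is described below with its values per library and their errors.

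A gene was called when its edgeR adjusted p was under 0.05 over all genes tested and its change was at least 2-fold; rose and fell are used only of called changes. Comparisons that use the same group share its libraries. In FA against 2iL, 4 of the 10 were called with RAS and ERF wild type, all higher, where 24% of all genes tested were called and 13.2% were called higher. Under the ERF knockout label with RAS, 4 of 10 were called, all higher (background 19.7% and 12.3% higher). With RAS deleted, 1 of 10 was called in ERF wild-type cells (background 16.5% and 9.96% higher) and 3 of 10 under the label (background 24.9% and 14.5% higher). By adjusted p alone, in the same order of comparisons, 6 of 10 passed (background 49.5%), 9 of 10 (46.9%), 4 of 10 (43%) and 7 of 10 (55.7%). Library ranges did not overlap for 8 of 10 (background 60.7%), 8 of 10 (58.2%), 6 of 10 (50.7%) and 8 of 10 (65.2%).

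RAS deletion in FA called 3 of 10 in ERF wild-type cells, all lower, against a background of 17.3% called and 8.33% called lower. It called the same 3, Dusp4, Dusp6 and Dusp9, under the knockout label, against 6.88% called and 4.06% lower. In 2iL it called 1 of 10 in ERF wild-type cells (background 1.2% and 0.692% higher) and 0 of 10 under the label (background 0.211%), where 4 had an unadjusted p under 0.05 in edgeR and DESeq2 also called 0. By adjusted p alone 7 of 10 (background 41.3%) and 6 of 10 (26.4%) passed in FA, and 4 of 10 (5.7%) and 2 of 10 (1.31%) in 2iL, each with ERF wild type first. Ranges did not overlap for 7 of 10 in FA in each ERF state (background 53.1% and 46.9%) and for 4 of 10 in 2iL in each (background 27.2% and 24.6%).

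The ERF knockout label went with 1 of 10 called in 2iL with RAS (background 9.72%, 4.52% lower), 4 of 10 in 2iL without RAS (background 13%, 7.15% lower) and 1 of 10 in FA without RAS (background 16.6%, 8.48% lower), all lower. In FA with RAS 0 of 10 were called (background 2.36%), where 4 had an unadjusted p under 0.05 in edgeR and DESeq2 also called 0. That background is 480 genes. Leaving out replicate 1 of ERF wild type made it 124, leaving out replicate 2 made it 749, and leaving out replicate 2 of the label made it 238. By adjusted p alone 6 of 10 passed in 2iL with RAS (background 27.8%), 7 of 10 in 2iL without RAS (39.1%), 5 of 10 in FA without RAS (42.8%) and 3 of 10 in FA with RAS (9.78%). Ranges did not overlap for 7 of 10 (background 40.9%), 9 of 10 (53.2%), 5 of 10 (51.2%) and 8 of 10 (38.9%) in that order.

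Differences between effects were tested as interactions. The FA response differed with RAS for 2 of 10 members with ERF wild type (background 11.9%, 5.3% lower) and for 3 of 10 under the label (background 4.59%, 2.31% lower). It differed with ERF for 2 of 10 without RAS (background 11.3%, 5.59% higher) and for 0 of 10 with RAS (background 4.27%; 7 had an unadjusted p under 0.05 in edgeR, and DESeq2 also called 0). The RAS effect differed with ERF for 0 of 10 in FA (background 13.7%) and for 0 of 10 in 2iL (background 0.378%), where 6 and 3 had an unadjusted p under 0.05 in edgeR and DESeq2 also called 0. By adjusted p alone the counts were 7 of 10 (background 24.5%) and 4 of 10 (13.1%) for medium with RAS, ERF wild type first, 5 of 10 (26.4%) for medium with ERF without RAS, and 3 of 10 (28%) for RAS with ERF in FA. The second, the third and the last-named 2iL interaction were added after the values had been seen. For Dusp4 without RAS the difference of the FA response with ERF was -1.42 (edgeR adjusted p = 0.0778). Blocking on the replicate number gave -1.39, which was called (edgeR adjusted p = 6.21e-04), so 3 of 10 members were then called.

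**Figure D2:**
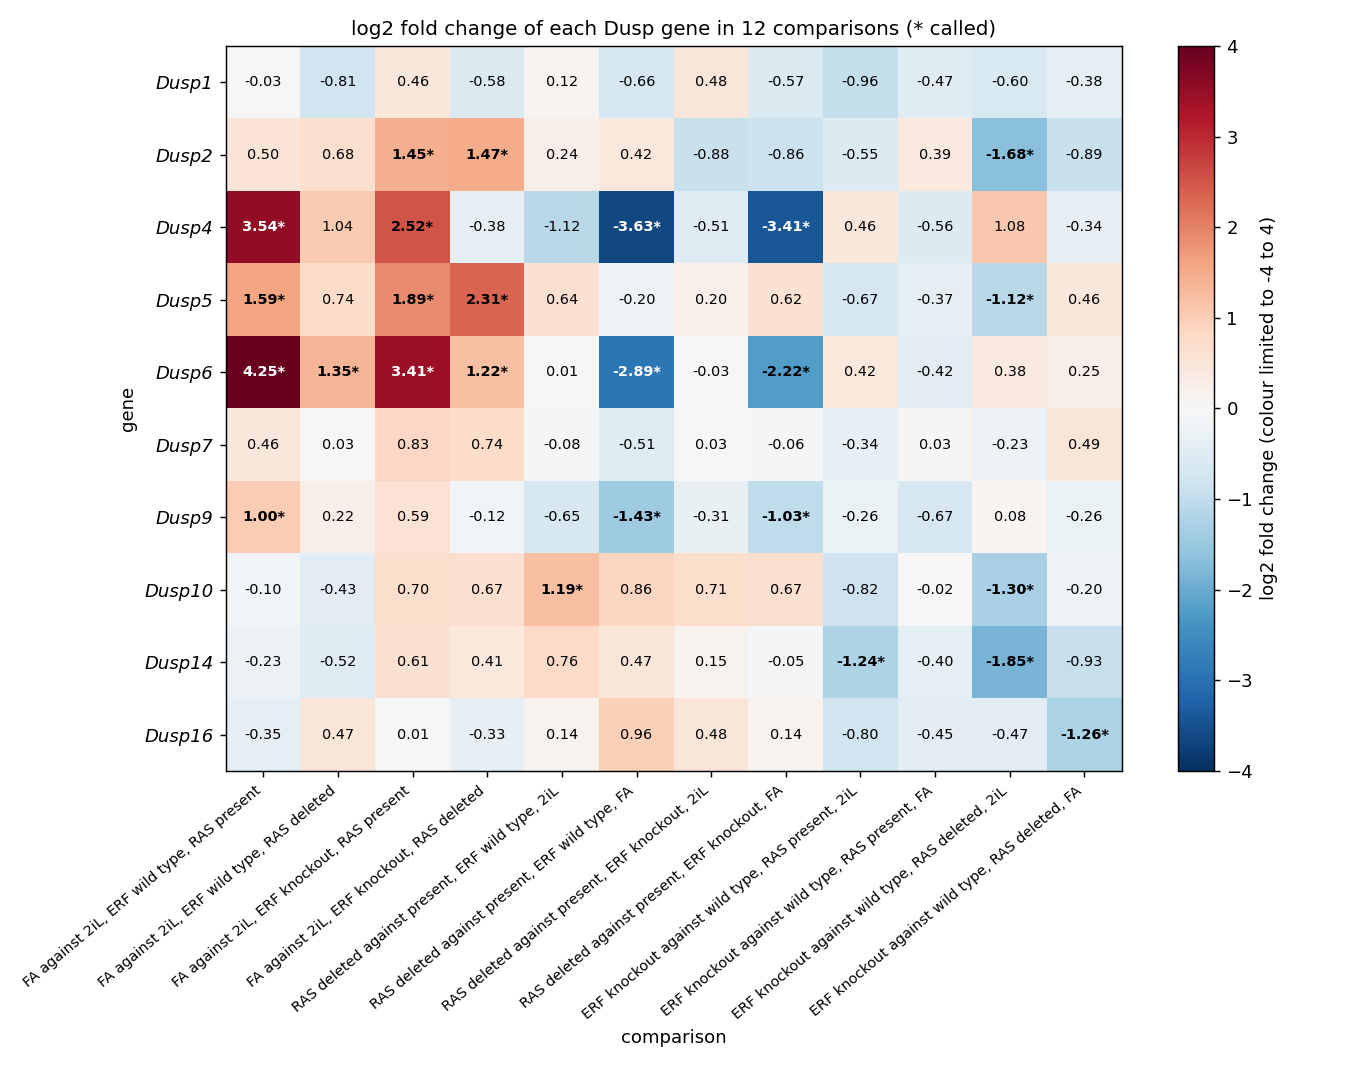
log2 fold change of each gene (rows) in the 12 comparisons that change 1 factor (columns), first named group over second. Asterisks mark called changes. Dusp4, Dusp6 and Dusp9 are called lower in both comparisons of RAS deletion in FA and in neither of those in 2iL.

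Dusp6, the cytoplasmic ERK phosphatase (chr10:99263231-99267489), gave the widest medium response of the family in cells with RAS. With ERF wild type and RAS present it measured 5.92, 8.21 and 9.24 CPM in 2iL and 138 and 155 CPM in FA. Every FA library stood far above every 2iL library, a rise of 4.25 on the log2 scale (SE 0.24, edgeR adjusted p = 4.81e-11). Dusp6 under the ERF knockout label went from 9.51, 11.5 and 9.93 CPM to 118, 99.9 and 111 CPM, a rise of 3.41 (SE 0.22, edgeR adjusted p = 3.78e-10).

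Without RAS most of the Dusp6 response was gone, but not all of it. In FA the RAS-deleted libraries had 12.3, 21.3 and 25.5 CPM with ERF wild type and 22.5, 22.7 and 25.3 CPM under the knockout label. All 6 lay below the 5 FA libraries with RAS and above all 12 in 2iL. RAS deletion lowered Dusp6 in FA by a log2 fold change of -2.89 with ERF wild type (SE 0.22, edgeR adjusted p = 5.51e-09) and of -2.22 under the knockout label (SE 0.20, edgeR adjusted p = 4.38e-07). The difference between these effects was 0.67 (SE 0.29, edgeR adjusted p = 0.0979), which did not pass the test.

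The remaining rise of Dusp6 with FA in RAS-deleted cells was called in both ERF states. It was 1.35 with ERF wild type (SE 0.22, 2.54-fold, edgeR adjusted p = 9.01e-05) and 1.22 under the knockout label (SE 0.22, 2.33-fold, edgeR adjusted p = 1.18e-04). In 2iL, where MEK is inhibited, RAS-deleted libraries had 5.22, 8.88 and 9.15 CPM with ERF wild type, values that overlap those with RAS (log2 fold change 0.01, SE 0.24, edgeR adjusted p = 0.987). The label group without RAS in 2iL had 9.28 to 10.6 CPM, which overlap those with RAS as well. The medium response with RAS deleted was smaller than with RAS present by 2.90 log2 units with ERF wild type (interaction -2.90, SE 0.32, edgeR adjusted p = 2.44e-06) and by 2.19 under the knockout label (interaction -2.19, SE 0.31, edgeR adjusted p = 1.89e-04).

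Dusp9, also a cytoplasmic ERK phosphatase and X-linked (chrX:73639419-73643514), was high in every library, with a lowest value of 59.1 CPM. It was called in 3 of the comparisons that also called Dusp6. With ERF wild type and RAS it measured 99.0, 110 and 105 CPM in 2iL and 166 and 253 CPM in FA, 2 libraries that lay apart from each other yet both above 2iL. The rise of 1.00 (SE 0.12, edgeR adjusted p = 6.02e-07) sat on the 2-fold limit: without the FA library at 253 CPM it was 0.66 and not called.

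After RAS deletion Dusp9 in FA was 81.2, 82.7 and 68.5 CPM with ERF wild type and 59.1, 64.0 and 71.3 CPM under the knockout label. With RAS, the knockout-labelled FA libraries had 123, 128 and 145 CPM. RAS-deleted libraries were below all RAS-present ones in both ERF states, with log2 fold changes of -1.43 (SE 0.12, edgeR adjusted p = 4.65e-09) and -1.03 (SE 0.11, edgeR adjusted p = 1.29e-06). The second was close to the limit as well, since 3 of 14 alternatives took it just under 2-fold (lowest size -0.96).

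With ERF wild type Dusp9 was also lower without RAS in 2iL by adjusted p, at 60.8, 69.4 and 69.3 CPM against 99.0 to 110 CPM with RAS. The ranges did not overlap, and the log2 fold change of -0.65 (SE 0.11, edgeR adjusted p = 0.00213) passed the adjusted p but not 2-fold. Under the knockout label it had 85.5, 87.2 and 89.8 CPM with RAS and 76.4, 68.1 and 67.0 CPM without, again apart, with a log2 fold change of -0.31 (edgeR adjusted p = 0.190). The FA response of Dusp9 differed with RAS by -0.78 (SE 0.17, edgeR adjusted p = 0.00150) and -0.72 (SE 0.16, edgeR adjusted p = 0.00562) in the 2 ERF states, both under 2-fold. Genes of the X chromosome as a whole moved by -0.04 to 0.10 log2 units between libraries.

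Dusp7, the third cytoplasmic ERK phosphatase (chr9:106368632-106375724), stayed between 18.1 and 35.9 CPM in all 23 libraries and was called in no comparison. Its medium response differed with ERF by adjusted p where RAS was deleted. With ERF wild type it measured 22.1, 23.1 and 22.2 CPM in 2iL and 24.3, 22.9 and 21.8 CPM in FA, which overlap. In libraries of the knockout label it went from 19.1, 18.1 and 20.4 CPM to 30.9, 30.8 and 34.8 CPM, with every FA library above every 2iL library (log2 fold change 0.74, SE 0.09, edgeR adjusted p = 1.62e-07). The difference between these responses was 0.71 (SE 0.12, edgeR adjusted p = 1.35e-04), under 2-fold. With RAS, Dusp7 went from 26.1, 23.7 and 21.5 CPM to 29.5 and 35.9 CPM in ERF wild-type cells and from 18.2, 19.7 and 18.5 CPM to 33.8, 32.2 and 34.4 CPM under the label. FA libraries were above 2iL libraries in both (log2 fold changes 0.46 and 0.83). In ERF wild-type cells in FA, Dusp7 was lower without RAS by a log2 fold change of -0.51 (SE 0.09, edgeR adjusted p = 1.35e-04), again without overlap.

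**Figure D3:**
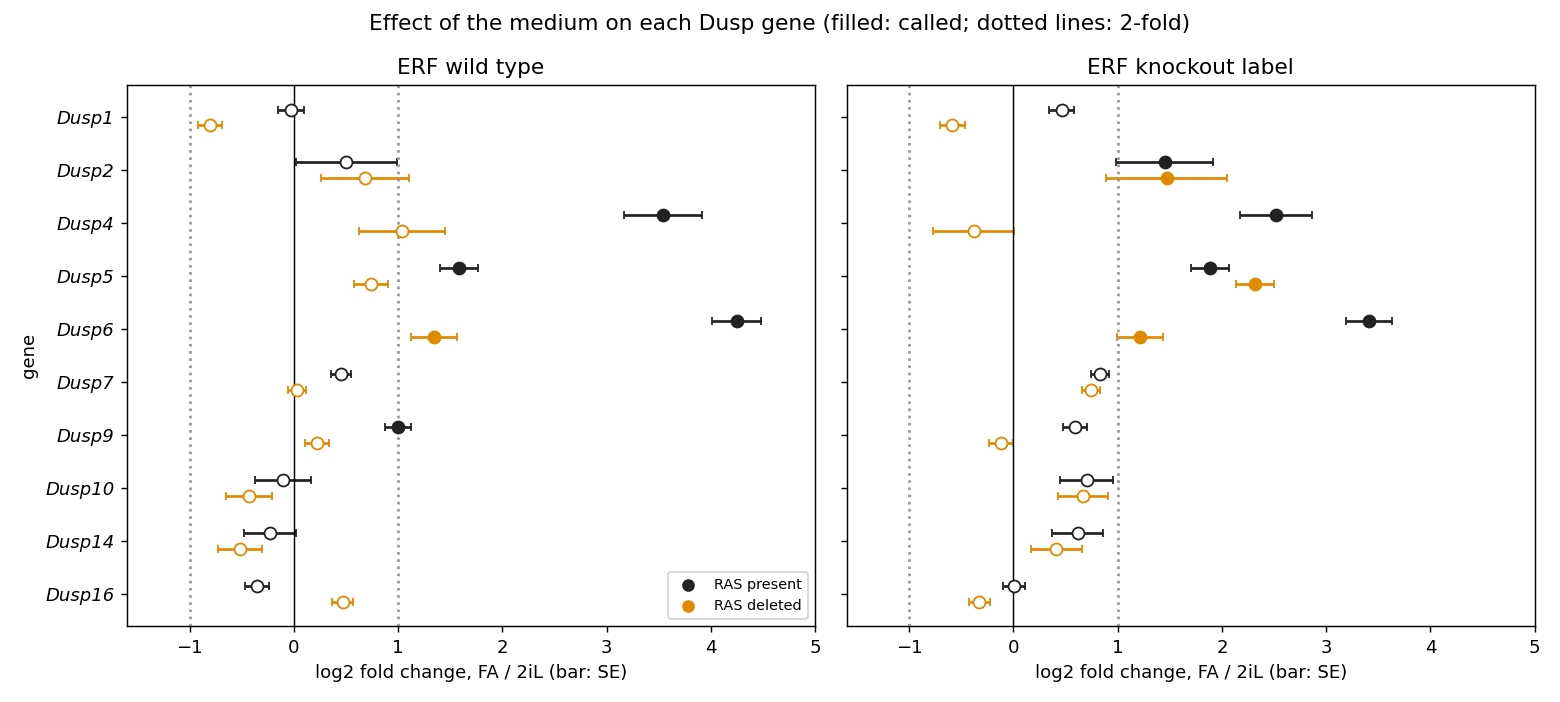
log2 fold change of FA over 2iL for each gene (points; bars, SE) with RAS present (black) and deleted (orange), in ERF wild type (left) and under the knockout label (right); filled points are called and dotted lines mark 2-fold. Dusp4 and Dusp6 show the widest gaps between the RAS states. Under the knockout label Dusp2, Dusp5 and Dusp6 are called in both RAS states, and with ERF wild type Dusp6 is.

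Dusp4, a nuclear phosphatase of ERK and JNK (chr8:34807297-34819894), also rose with FA and fell in FA when RAS was deleted. With ERF wild type it was 12.8, 5.83 and 2.79 CPM in 2iL with RAS, a wide spread in which the highest library is the one with raised chromosome 8. In FA with RAS it was 107 and 64.3 CPM. After RAS deletion it was 5.17, 7.13 and 8.41 CPM in FA, back in the range of the 2iL libraries.

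The rise of Dusp4 with FA was 3.54 with ERF wild type (SE 0.37, edgeR adjusted p = 6.01e-07), and its change with RAS deletion in FA was -3.63 (SE 0.37, edgeR adjusted p = 7.45e-07). Without the 4 libraries with raised chromosome 8 these values were 3.92 and -3.03, both still called; that leaves 1 library of ERF wild type with RAS in FA, which is assumed to vary like the others. Dusp4 in the knockout-labelled libraries went from 7.59, 11.3 and 11.7 CPM in 2iL to 57.5, 62.7 and 54.5 CPM in FA, and to 5.25, 5.92 and 5.26 CPM in FA without RAS. Its log2 fold changes there were 2.52 for FA (SE 0.34, edgeR adjusted p = 1.31e-05) and -3.41 for RAS deletion (SE 0.36, edgeR adjusted p = 5.39e-06).

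With RAS deleted, Dusp4 had no called response to FA in either ERF state. The values were 3.49, 3.25 and 3.39 CPM in 2iL against 5.17 to 8.41 CPM in FA with ERF wild type, where the groups do not overlap (log2 fold change 1.04, SE 0.41, edgeR adjusted p = 0.0524). That difference was called in 8 of 15 alternatives. With the replicate number as a block it was 1.02 (edgeR adjusted p = 0.00288), and 2 of 10 members rather than 1 were then called. For the knockout label the log2 fold change was -0.38 (edgeR adjusted p = 0.429). Dusp4 had 5.69, 8.90 and 6.74 CPM there in 2iL, which overlap the FA values. The medium response with RAS deleted was smaller by 2.50 with ERF wild type (interaction -2.50, SE 0.56, edgeR adjusted p = 0.00350) and by 2.90 under the label (interaction -2.90, SE 0.52, edgeR adjusted p = 0.00193).

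In 2iL Dusp4 stood lower without RAS in ERF wild-type cells (log2 fold change -1.12, SE 0.41, edgeR adjusted p = 0.125), a value that hung on single libraries. Without the 4 libraries with raised chromosome 8 it was -0.33 (edgeR adjusted p = 0.676), and without replicate 3 with RAS it was -1.51 and called (edgeR adjusted p = 0.00996). Against ERF wild type, Dusp4 in 2iL with RAS was higher under the knockout label by 0.46 (edgeR adjusted p = 0.393). Without those 4 libraries the same difference was 1.29 and called (edgeR adjusted p = 0.00186). In 2iL without RAS the groups did not overlap and the difference had an edgeR adjusted p of 0.0561; it was 1.11 and called without those libraries (edgeR adjusted p = 0.00634).

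Markers of primitive endoderm differed between groups too. The 7 markers, all detected in every group, summed in 2iL to between 32.1 and 52.3 CPM with RAS and between 26.5 and 35.8 CPM without it in ERF wild-type cells, and to between 181 and 539 CPM and between 85.1 and 208 CPM under the knockout label. In FA they summed to between 219 and 420 CPM with RAS and between 116 and 193 CPM without it in ERF wild-type cells, and to between 328 and 466 CPM and between 121 and 253 CPM under the knockout label. Their part in the Dusp results was not tested. In RNA from whole cultures, fewer cells of a type and less RNA per cell cannot be told apart.

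**Figure D4:**
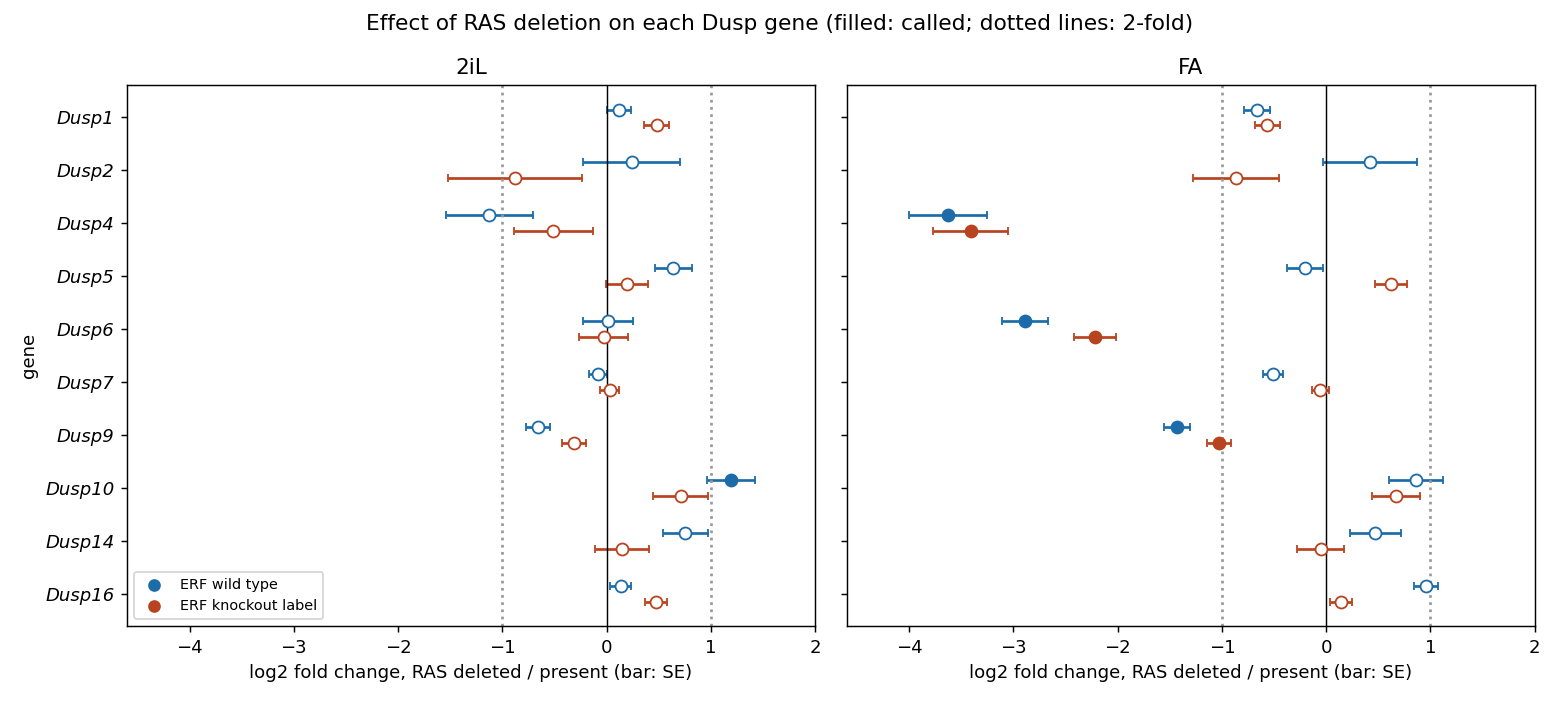
log2 fold change of RAS deleted over RAS present for each gene (points; bars, SE) in 2iL (left) and FA (right), with ERF wild type in blue and the knockout label in red; filled points are called and dotted lines mark 2-fold. In FA the points of Dusp4, Dusp6 and Dusp9 are filled in both ERF states; in 2iL the one filled point is Dusp10 with ERF wild type.

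Dusp5, the nuclear phosphatase selective for ERK (chr19:53529109-53542431), rose with FA in 3 of the 4 medium comparisons and was not called for RAS deletion in any. With ERF wild type and RAS it was 4.34, 3.27 and 4.18 CPM in 2iL and 11.2 and 12.7 CPM in FA, a rise of 1.59 with no overlap (SE 0.18, edgeR adjusted p = 1.73e-07). RAS-deleted FA libraries had 8.28, 10.8 and 11.9 CPM, overlapping those with RAS (log2 fold change -0.20, edgeR adjusted p = 0.380). In 2iL the RAS-deleted libraries, at 7.26, 5.93 and 5.37 CPM, lay above those with RAS (log2 fold change 0.64, SE 0.18, edgeR adjusted p = 0.0331), under 2-fold. The FA response without RAS was accordingly 0.74 (SE 0.16, edgeR adjusted p = 8.40e-04), smaller than with RAS by 0.84 (interaction -0.84, SE 0.25, edgeR adjusted p = 0.0145), both under 2-fold. Its 2 CArG boxes are those in capitals in the stretch printed above.

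Within the knockout label Dusp5 was highest where RAS was deleted. It went from 3.24, 3.08 and 2.16 CPM in 2iL to 14.5, 15.4 and 12.6 CPM in FA, a rise of 2.31 (SE 0.18, 4.98-fold, edgeR adjusted p = 2.21e-10). With RAS it went from 2.69, 2.87 and 1.89 CPM to 9.46, 9.30 and 8.89 CPM, a rise of 1.89 (SE 0.18, edgeR adjusted p = 1.11e-08). Every knockout-labelled FA library without RAS thus lay above every one with RAS, a difference that was not called. Without RAS in 2iL Dusp5 was lower under the knockout label than with ERF wild type, which had 7.26, 5.93 and 5.37 CPM (log2 fold change -1.12, SE 0.19, edgeR adjusted p = 5.22e-05); leaving out replicate 1 of the wild-type group or replicate 3 of the knockout-labelled group took this to -0.97 and uncalled. In FA the order was the other way round, by 0.46 (SE 0.16, edgeR adjusted p = 0.0216), under 2-fold. The medium response without RAS was larger under the knockout label by 1.57 (interaction, SE 0.24, edgeR adjusted p = 3.99e-05). The 5 neural markers, all detected, were also highest in this FA group, summing to between 137 and 147 CPM against 56.3 to 72.9 CPM in FA with RAS and 31.1 to 40.3 CPM in 2iL under the label, and to between 46.0 and 101 CPM over the ERF wild-type groups. Their part in the Dusp5 values was not tested.

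Dusp1, the stress- and growth-factor-induced nuclear phosphatase of p38, JNK and ERK (chr17:26505590-26562128), was lower under the knockout label in all 4 pairings of medium and RAS. In 2iL with RAS it had 32.3, 25.8 and 23.4 CPM with ERF wild type and 13.2, 13.7 and 15.1 CPM under the label, with no overlap. That was the widest of the 4 differences (log2 fold change -0.96, SE 0.12, edgeR adjusted p = 2.11e-06) and was just short of 2-fold; without replicate 3 of the wild-type group it was -1.06 and called. In the other pairings the log2 fold change lay between -0.60 and -0.38, each with an edgeR adjusted p under 0.05 and no overlap.

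Dusp1 was lower without RAS in FA, where ERF wild-type libraries had 27.5 and 26 CPM with RAS and 18.9, 16.8 and 15 CPM without. The groups did not overlap (log2 fold change -0.66, SE 0.13, edgeR adjusted p = 1.88e-04). Knockout-labelled libraries in FA had 19.1, 18.1 and 20.6 CPM with RAS and 13.9, 13.3 and 11.7 CPM without, apart as well (log2 fold change -0.57, SE 0.12, edgeR adjusted p = 0.00114). In 2iL the ERF wild-type libraries without RAS, at 32.9, 27.4 and 28.4 CPM, overlapped those with RAS, and under the knockout label they were higher without RAS, at 19.5, 17.6 and 21.6 CPM (log2 fold change 0.48, edgeR adjusted p = 0.0495). For that label the medium response differed with RAS by -1.05 (interaction, SE 0.17, edgeR adjusted p = 3.29e-04), which 4 alternatives took just under 2-fold.

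Dusp2, a nuclear phosphatase best known from lymphocytes (chr2:127336159-127338376), was close to undetected, with 0 to 18 counts per library. It was called higher with FA under the knockout label with RAS (0.192, 0.162 and 0.315 CPM against 0.530, 0.652 and 0.677 CPM) and without RAS (0.171, 0.168 and 0 CPM against 0.354, 0.408 and 0.249 CPM). It was called lower under the label in 2iL without RAS, where ERF wild type had 0.430, 0.558 and 0.194 CPM. The edgeR adjusted p values were 0.0129, 0.0349 and 0.0263, and each of these calls was lost when certain single libraries were left out. With the replicate number as a block Dusp2 had too few counts to be tested in the second of these comparisons, so 2 of 10 members were then called.

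Dusp10 and Dusp16, the phosphatases that prefer JNK and p38, had log2 fold changes above 0 for RAS deletion in all 4 comparisons, from 0.67 to 1.19 and from 0.14 to 0.96. Higher means without RAS were not limited to these genes. In 2iL with ERF wild type Dusp14 averaged 9.33 CPM without RAS and 5.53 CPM with it, and Dusp5 6.19 and 3.93 CPM. In FA the mean of Dusp14 was lower without RAS under the label (3.44 against 3.57 CPM). That of Dusp5 was lower without RAS with ERF wild type (10.3 against 11.9 CPM). In the other comparisons both means were higher without RAS. Dusp10 (chr1:184013302-184075636) had 3.19, 2.38 and 3.67 CPM with ERF wild type and RAS in 2iL and 7.90, 6.09 and 7.26 CPM without RAS. The groups did not overlap, and this was the single called member for RAS deletion in 2iL (log2 fold change 1.19, SE 0.23, edgeR adjusted p = 0.00410; called in 15 of 15 alternatives).

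In FA Dusp10 was 2.01 and 3.84 CPM with RAS and 5.52, 5.23 and 5.00 CPM without (log2 fold change 0.86, SE 0.26, edgeR adjusted p = 0.0105), under 2-fold; without the library at 3.84 CPM it was 1.39 and called (edgeR adjusted p = 0.00143). In the knockout-labelled cells its values with RAS were 1.49, 1.30 and 2.47 CPM in 2iL and 3.59, 2.82 and 2.15 CPM in FA, and without RAS 4.44, 4.20 and 5.01 CPM in FA. The log2 fold changes with RAS deletion there were 0.71 in 2iL (edgeR adjusted p = 0.188) and 0.67 in FA (edgeR adjusted p = 0.0332). Its level in 2iL without RAS fell with the knockout label to 2.90, 2.74 and 2.97 CPM, a log2 fold change of -1.30 (SE 0.24, edgeR adjusted p = 1.28e-04). Without RAS, the FA responses of Dusp10 had opposite signs. FA stood below 2iL with ERF wild type, with a log2 fold change of -0.43 (edgeR adjusted p = 0.118) that was not called, and above it under the label by 0.67 (edgeR adjusted p = 0.0205), under 2-fold. They differed by 1.10 (interaction, SE 0.32, edgeR adjusted p = 0.0138).

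Dusp16 (chr6:134715468-134792625) was strongest in ERF wild-type cells without RAS in FA, at 98.9, 92.4 and 75.7 CPM, against 44.8 and 46.8 CPM with RAS. The log2 fold change of 0.96 (SE 0.12, edgeR adjusted p = 4.97e-07) was just short of 2-fold and was called in 6 of 14 alternatives. Dusp16 in knockout-labelled FA libraries was 38.2, 30.8 and 31.8 CPM with RAS and 36.4, 35.1 and 39.9 CPM without, which overlap. The RAS effect differed between the ERF states by -0.82 (SE 0.15, edgeR adjusted p = 2.95e-04), under 2-fold. Without RAS in FA Dusp16 fell with the knockout label by a log2 fold change of -1.26 (SE 0.10, 2.40-fold, edgeR adjusted p = 9.33e-10). The ERF wild-type group without RAS in FA, in which Dusp16 was highest, is the one with naive marker sums of 1284 to 2061 CPM; their part in the result was not tested. In 2iL Dusp16 had 60.1, 55.3 and 59.7 CPM with RAS and 72.1, 56.3 and 64.5 CPM without in ERF wild-type cells, which overlap. The knockout-labelled 2iL libraries had 33.7, 31.7 and 34.9 CPM with RAS and 47.3, 42.3 and 50.1 CPM without, which do not (log2 fold change 0.48, SE 0.10, edgeR adjusted p = 0.0236). All 6 of them lay below the 6 of ERF wild type.

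Dusp14, the atypical phosphatase (chr11:84048041-84069261), was called for the ERF label in 2iL. In 2iL with RAS it had 5.01, 6.07 and 5.53 CPM with ERF wild type and 2.74, 2.27 and 1.94 CPM under the knockout label. Without RAS it had 11.4, 8.37 and 8.23 CPM against 2.67, 2.13 and 2.97 CPM. The groups did not overlap in either case, and the log2 fold changes were -1.24 (SE 0.24, edgeR adjusted p = 4.12e-04) and -1.85 (SE 0.24, edgeR adjusted p = 1.84e-06). Without the 2 libraries with raised chromosome 11 they were -1.36 and -1.87. In FA without RAS it had 9.68, 5.51 and 4.46 CPM against 3.15, 3.27 and 3.90 CPM (log2 fold change -0.93, SE 0.22, edgeR adjusted p = 0.00161). In FA with RAS it had 4.86 and 4.55 CPM against 3.59, 4.08 and 3.03 CPM (log2 fold change -0.40, edgeR adjusted p = 0.337). The libraries of the label lay below those of ERF wild type in these FA comparisons too, though the differences were under 2-fold. Trophoblast markers (7, all detected) summed in 2iL to between 111 and 134 CPM with ERF wild type and between 64.3 and 82.3 CPM under the label, and 6 mesoderm and streak markers to between 17.1 and 20.6 CPM and between 8.83 and 12.3 CPM. Their part in the values of Dusp14 and of the other members that were lower under the label was not tested. Dusp14 shared 3.4% of its 31-base words with transcripts of other genes, mostly Gm18555, and the other 9 genes shared under 1% each.

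**Figure D5:**
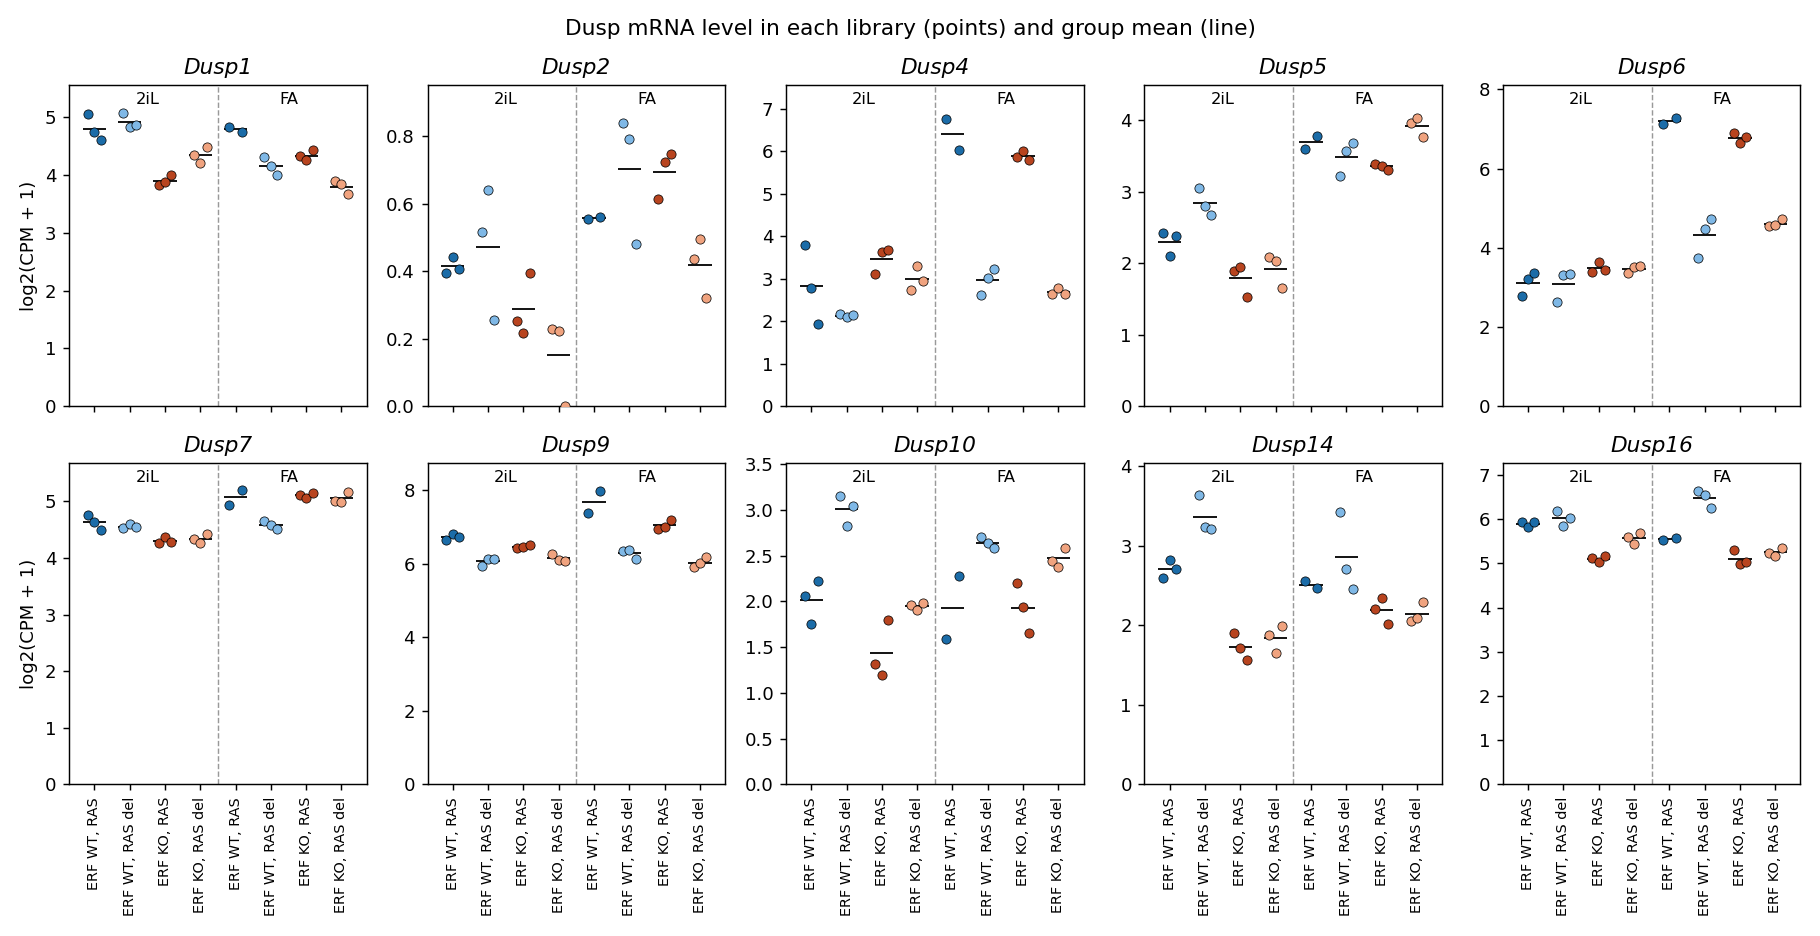
Level of each gene as log2(CPM + 1) in each library (points, replicates side by side) and the mean of these log values (line), in 8 groups; the dashed line separates 2iL from FA, y axes start at 0 and differ between panels. Dusp4 and Dusp6 are high only in the 5 FA libraries with RAS, and all 6 Dusp14 points of the knockout label in 2iL lie below the 6 of ERF wild type.

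Across the 23 libraries, on the log2(CPM + 1) scale, Dusp4 and Dusp6 had a Pearson r of 0.88. Within the 11 FA libraries r was 0.97, and within the 12 of 2iL it was 0.20. Dusp4 and Dusp10 ran in opposite directions in FA (r = -0.86), as did Dusp7 and Dusp16 (r = -0.85), which in 2iL ran together (r = 0.75). Dusp14 and Dusp16 had r = 0.87 in 2iL and 0.83 in FA. Libraries share groups, so these values describe the pattern only. Of 11240 genes with a group mean of at least 5 CPM, the 3 whose levels were most like Dusp6 over the 23 libraries were Amot (r = 0.98), Slc40a1 (r = 0.97) and Spon1 (r = 0.96). For Dusp4 they were Sox7 (r = 0.95), Clic6 (r = 0.94) and Foxq1 (r = 0.94), and for Dusp9 Cyb5r1 (r = 0.91), Sdf4 (r = 0.84) and Klb (r = 0.84). Within FA these r values were 0.83 to 0.99. Within 2iL they were 0.78, 0.74 and 0.46 for the Dusp6 genes in that order. For those of Dusp4 they were 0.56, 0.40 and 0.63, and for those of Dusp9 0.89, 0.80 and 0.52.

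A list of 12 other genes linked to ERK feedback held Sprouty and Spred genes and also Lif, the gene of the cytokine in 2iL, which is no such inhibitor. With RAS deletion in FA and ERF wild type 5 of 12 fell (8.33% of all genes fell) and 1, Lif, rose, with a median log2 fold change of -0.94 against 0.00 for all genes tested. Spry4 had a log2 fold change of -6.52 (SE 0.29), Spry2 of -4.01 (SE 0.17), Il17rd of -3.30 (SE 0.11) and Spred1 of -2.94 (SE 0.10). With the knockout label 2 of 12 fell (4.06% of all genes), Spry4 (-4.41, SE 0.26) and Spred3 (-2.42, SE 0.20), and 0 rose, with a median of -0.42. Of 17 tested ERK response transcription factors 6 fell in each ERF state, against the same 8.33% and 4.06% of all genes. Among them were Etv4 (-3.09, SE 0.21, and -5.39, SE 0.26) and Egr1 (-2.82, SE 0.47, and -3.33, SE 0.43). Genes of this list that rose are not counted here, so these falls do not describe the list as a whole. In 2iL RAS deletion called 0 genes of either list in either ERF state.

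Where RAS was deleted, FA itself lowered 3 of these 12 genes with ERF wild type (Spry2, Spred1 and Il17rd) and raised 0, where 16.5% of all genes were called. With the knockout label, where 24.9% of all genes were called, 2 of 12 fell (Spry4, -3.09, and Spry2, -1.78) and 2 rose (Errfi1, 1.83, and Il17rd, 1.47), so Il17rd went the other way. Dusp6 rose in both. Of 13 further tested genes of the DUSP and STYX family, 3 rose and 1 fell with RAS deletion in FA and ERF wild type (17.3% of all genes were called), with a median log2 fold change of -0.01. Dusp13 (2.92, SE 0.97), Dusp27 (1.90, SE 0.22) and Dusp8 (1.53, SE 0.45) rose and Dusp26 fell (-1.99, SE 0.44). With the knockout label 1 of 13, Dusp27, rose (2.57, SE 0.21) and 0 fell, where 6.88% of all genes were called.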

How the data were processed

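The authors deposited, per the file headers, 1 table per library with estimated counts, TPM and effective lengths in bases per gene symbol, as salmon writes them, and a matrix equal to the rounded estimated counts. Per the submitters' processing notes, the tools were bcl2fastq 2.20.0, fastp 0.20.0 and Salmon, and the build was mm10. Ribosomal RNA was depleted and libraries were strand-specific, per the labels' protocols.

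Rounded estimated counts were tested with edgeR 4.0.16 (filterByExpr, TMM, robust quasi-likelihood test, 1 model of 23 libraries with a coefficient per group), with Benjamini-Hochberg adjustment over 20372 genes. SE is the size of the log2 fold change over the root of the F statistic. CPM uses TMM-scaled library sizes. DESeq2 served as an alternative. The script was tested on simulated data. Replicates differed by more than sampling noise (chi-square per degree of freedom 3.04 to 44.9 over 22 pairs). Libraries had no molecular identifiers, so counting precision is an upper bound. Positions are from GENCODE M21 (GRCm38).

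Same-numbered libraries deviated together in 5 comparisons (every r over 0.1 in 3 pairs): FA against 2iL in all but the group pair with ERF wild type and RAS, and RAS deletion in 2iL in both ERF states.

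All 10 members are named, at most 4 called genes of a list are named by size of change, and likeness is Pearson's r over libraries. The members and lists were chosen with earlier results of these data known. The RAS gene flanked by loxP sites is not reported here.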

Additional observations from a re-analysis of the deposited data

Results flagged for a closer look

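The effect of FA on 5 members differed between groups by a test of the difference itself, called at an edgeR adjusted p under 0.05 and a difference of at least 2-fold. Dusp4 and Dusp6 responded less where RAS was deleted, in ERF wild-type cells (differences of -2.50 and -2.90 on the log2 scale) and under the knockout label (-2.90 and -2.19), and each of these held in all of its alternatives. Dusp1 responded differently with RAS under the knockout label (-1.05), and 4 of 21 alternatives took this under 2-fold. Its difference with RAS in ERF wild-type cells was not called. With RAS deleted, Dusp5 responded more under the knockout label than with ERF wild type (by 1.57), and the responses of Dusp10 had opposite signs, -0.43 with ERF wild type and 0.67 under the label, neither called (a difference of 1.10); Dusp10 was at 1.00 and uncalled without replicate 1 of the ERF wild-type group in 2iL. The tests under the knockout label and with RAS deleted were added after the values had been seen.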

How the results depend on the processing

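For the 32 called changes of a member in the 12 comparisons and 6 interactions, 513 alternatives were computed: 481 kept direction and call, 32 kept the direction and lost the call, and 0 reversed. Lost calls were of Dusp2, Dusp9, Dusp5, Dusp1 and Dusp10. Without a 2-fold minimum the members called numbered 4 (from 1) for FA against 2iL with ERF wild type and RAS deleted, 9 (from 4) and 7 (from 3) under the knockout label with RAS present and deleted, 4 (from 1) and 7 (from 3) for deletion of RAS in ERF wild-type cells in 2iL and FA, 2 (from 0) and 6 (from 3) under the knockout label, 6 (from 1), 3 (from 0), 7 (from 4) and 5 (from 1) for the ERF label in 2iL with RAS, FA with RAS, 2iL without RAS and FA without RAS, and 3 (from 0) and 7 (from 2) for the interactions of RAS with ERF in FA and of medium with RAS in ERF wild type; 5 (from 2) for medium with ERF without RAS. For FA against 2iL with ERF wild type and RAS deleted, Dusp4 made 2 in place of 1 with library totals only, no count filter, length offsets, DESeq2, only the compared groups, the replicate block, or without the 4 libraries with raised chromosome 8. For deletion of RAS in ERF wild-type 2iL cultures it made 2 in place of 1 with no count filter and with DESeq2. Leaving out those 4 libraries gave 2 (from 1) for the ERF label in 2iL with RAS, 1 (from 0) for the interaction of medium with ERF with RAS, as did no count filter, and 4 (from 2) for that without RAS. This set, and that of 2 libraries with raised chromosome 11, was chosen after seeing the data.

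Leaving out single libraries gave 1 to 2 members called for FA against 2iL with ERF wild type and RAS deleted, 1 to 2 for deletion of RAS in ERF wild-type 2iL cultures, 3 to 5 in FA (5 without ERF wild type replicate 2 with RAS, which adds Dusp10 and Dusp16), 1 to 3 for the ERF label in 2iL with RAS, 2 to 4 without RAS, 1 to 3 in FA without RAS, and 0 to 1 and 1 to 3 for the interactions of medium with ERF with and without RAS. Where this left 1 library of ERF wild type with RAS in FA, that library is assumed to vary like the other groups.

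With the replicate number as a block, 3 of 10 members were called for FA against 2iL with ERF wild type and RAS (Dusp9 at 0.97), and 4 of 10 for RAS deletion in FA with ERF wild type (Dusp16 at 1.07). Each of these has 2 same-numbered pairs, whose deviations correlated at -0.065 to 0.0042 and -0.079 to 0.061, although replicate 1 of every ERF wild-type group shares the raised chromosome 8. For the ERF label in 2iL without RAS, where the numbers do not pair the libraries (r of -0.054 to 0.055), the block called Dusp4 (edgeR adjusted p = 4.24e-04) and left Dusp2 untested, so the count stayed at 4. Where the numbers pair the libraries, the block changed no call of a member other than those of Dusp4 and Dusp2 given in the report; over all genes it called 207 for RAS deletion in 2iL under the knockout label in place of 43. In that comparison DESeq2 called 85 genes and the range without single libraries was 17 to 40; for ERF wild type in 2iL it was 70 to 305 in place of 244. Over all genes, leaving out single libraries gave 124 to 749 in place of 480 for the ERF label in FA with RAS (266 with only the compared groups, 881 with no count filter), 577 to 1029 in place of 870 for the interaction of medium with ERF with RAS, and 26 to 159 in place of 77 for that of RAS with ERF in 2iL, where the block gave 458, no count filter 457, DESeq2 141 and length offsets 46. Library totals moved the median log2 fold change of all genes to 0.14 and 0.22 for FA against 2iL without RAS, with 69.1% in place of 58.3% of calls higher under the knockout label. Dusp2, at 0 to 18 counts, is limited by depth.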
